A study of Arabidopsis thaliana and Marchantia polymorpha and Mesotaenium endlicherianum with 120 samples.

Results

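Glycine-rich and cold-shock RNA-binding proteins are represented here by 5 genes of Arabidopsis thaliana, which were chosen by gene identifier: AT2G21660 (GRP7), AT4G39260 (GRP8), AT4G13850 (GR-RBP2), AT4G38680 (CSP2, also called GRP2) and AT4G36020 (CSDP1). They are 5 of the 32833 genes of the count table, and all 5 passed the filter on low counts. The 48 Arabidopsis libraries form 16 groups of 3, from the wild type Col-0 and the mutant lines Atpif4-2, Atphyb-9 and Athy5-2. Every group held whole seedlings, 7 days old, that had first spent 2 days at 20 °C under light 100, where light 10 and light 100 stand for continuous white light of that many µmol photons per square metre each second. Each line then spent 5 days in the 4 combinations of 16 or 24 °C with light 10 or light 100. The study asked how light and temperature are integrated in the transcriptome. The labels do not say whether replicates were separate cultures, so the p-values measure the spread between these libraries, which may be technical.

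GRP7 and GRP8 carry an RNA recognition motif followed by a glycine-rich stretch. They are outputs of the circadian clock, they rise in the cold, and GRP7 protein binds its own pre-mRNA and that of GRP8 and shifts both towards spliced forms that are degraded. GR-RBP2 has the same layout and is found in mitochondria. CSP2 and CSDP1 carry a cold-shock domain like that of the bacterial cold-shock proteins, with glycine-rich stretches and zinc knuckles, and unwind structured RNA. Of the mutated genes, PIF4 encodes a growth-promoting transcription factor active in warmth, PHYB a red-light receptor that also senses temperature, and HY5 a transcription factor of the light response. The counts are per gene and do not separate spliced forms. Each group was sampled at a single age, 7 days. For clock outputs, a change of level and a shift of clock phase therefore cannot be told apart here, and phase was not tested.

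GRP7 lies on chromosome 2 and the other members on chromosome 4. In the RefSeq annotation of TAIR10.1 they are GRP7 (chr2:9265084-9266557, minus strand, 1 intron), GRP8 (chr4:18273829-18275216, minus strand, 1 intron), GR-RBP2 (chr4:8020713-8022476, plus strand, 4 introns), CSP2 (chr4:18071449-18073182, minus strand, no intron) and CSDP1 (chr4:17042769-17044599, minus strand, 1 intron). The build the authors used is not given in the sources used here, and these coordinates serve only to place the genes. GRP7 and GRP8 are close copies, with 75.7% identical bases over 535 aligned columns of coding sequence, against 45.7% to 56.4% for the other pairs. Their first coding exons, which encode the start of the RNA recognition motif, are shown to describe how alike the copies are. The part of these differences in the results below was not tested. Capitals mark bases that differ from the other gene or have no partner in it, and 32 of 114 aligned columns differ.

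GRP7 (chr2:9266203-9266316, minus strand): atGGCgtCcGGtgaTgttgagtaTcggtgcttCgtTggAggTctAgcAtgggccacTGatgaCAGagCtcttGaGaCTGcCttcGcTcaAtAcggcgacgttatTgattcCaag
GRP8 (chr4:18274851-18274958, minus strand): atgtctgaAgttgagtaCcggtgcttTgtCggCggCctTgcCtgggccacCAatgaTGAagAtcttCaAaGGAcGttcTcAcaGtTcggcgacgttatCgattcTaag

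The longest exact match between a transcript of either gene and any other gene was 39 bases, between these 2 genes, and the reads had 100 bases, per the labels. The corresponding longest match elsewhere was 24 bases for GR-RBP2 and for CSP2, and none of at least 24 bases was found for CSDP1. CSP2 overlaps the gene AT4G38670 by 82 bases on the same strand, so reads there could be assigned to either.

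The 250 bases before the annotated starts of GRP7 and GRP8 follow, because both genes are clock outputs. Their part in the changes of level was not tested. Capitals mark the evening element, a clock motif, spelled AAAATATCT (AGATATTTT on the other strand), and the site II core, a motif of growth genes, spelled TGGGCC. Read on the opposite strand, the latter is spelled GGCCCA.

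GRP7 (chr2:9266558-9266807, minus strand): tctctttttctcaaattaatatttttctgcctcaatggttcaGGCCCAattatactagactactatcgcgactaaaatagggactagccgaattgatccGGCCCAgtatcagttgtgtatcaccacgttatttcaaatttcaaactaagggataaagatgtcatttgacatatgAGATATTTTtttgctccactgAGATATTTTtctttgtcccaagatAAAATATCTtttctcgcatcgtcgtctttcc
GRP8 (chr4:18275217-18275466, minus strand): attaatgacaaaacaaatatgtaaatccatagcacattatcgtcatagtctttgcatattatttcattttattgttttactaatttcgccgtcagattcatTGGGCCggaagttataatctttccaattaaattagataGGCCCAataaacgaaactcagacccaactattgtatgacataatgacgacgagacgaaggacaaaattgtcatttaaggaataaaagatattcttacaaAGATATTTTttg

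GRP7 had 3 evening elements and GRP8 had 1, while 2.361% of 27443 promoters of this length held at least 1. The site II core was present in all 5 member promoters and in 13.65% of the 27443. The CCA1-binding site AAAAATCT was found in CSDP1 alone (6.687% of promoters). The TATA box TATAAA was found in GR-RBP2 and CSDP1 (47.35% of promoters). The G-box CACGTG (6.486%), the drought and cold element core CCGAC (11.97%) and the telo box AAACCCTAA (2.613%) were in no member's window. Both strands were searched, none of the capitals printed overlap, and a match is only a description of these letters. Some annotated transcripts start inside the genes, up to 164 bases downstream in GRP7 and 199 bases in GRP8, so these windows serve the outermost start.

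Levels below are in CPM, counts relative to library sizes that were scaled by the trimmed mean of M-values (TMM). With scaling factors from 0.501 to 1.51, a value is neither a plain share of a library nor an amount per seedling. Per kilobase of exon, GRP7 was the most abundant of the 5, with group means from 167 to 754 CPM per kilobase. GRP8 followed at 39.9 to 141, CSP2 at 27.8 to 101, GR-RBP2 at 18.2 to 47.7 and CSDP1 at 3.23 to 7.11. Among 22605 genes with a length, GRP7 ranked between 118 and 510 from the top in the 16 groups, and CSDP1 between 8195 and 12463. Deposited counts per library ran from 4379 to 31038 for GRP7 and from 169 to 585 for CSDP1, so CSDP1 has the largest counting error. With TMM scaling, the highest group mean was 4.52 times the lowest for GRP7, 3.52 for GRP8, 3.63 for CSP2, 2.62 for GR-RBP2 and 2.20 for CSDP1. With the 16 groups of a gene in order of level, neighbouring groups overlapped in 15 of 15 pairs for GRP7 and CSP2, 14 of 15 for GR-RBP2 and CSDP1 and 12 of 15 for GRP8.

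**Figure D1:**
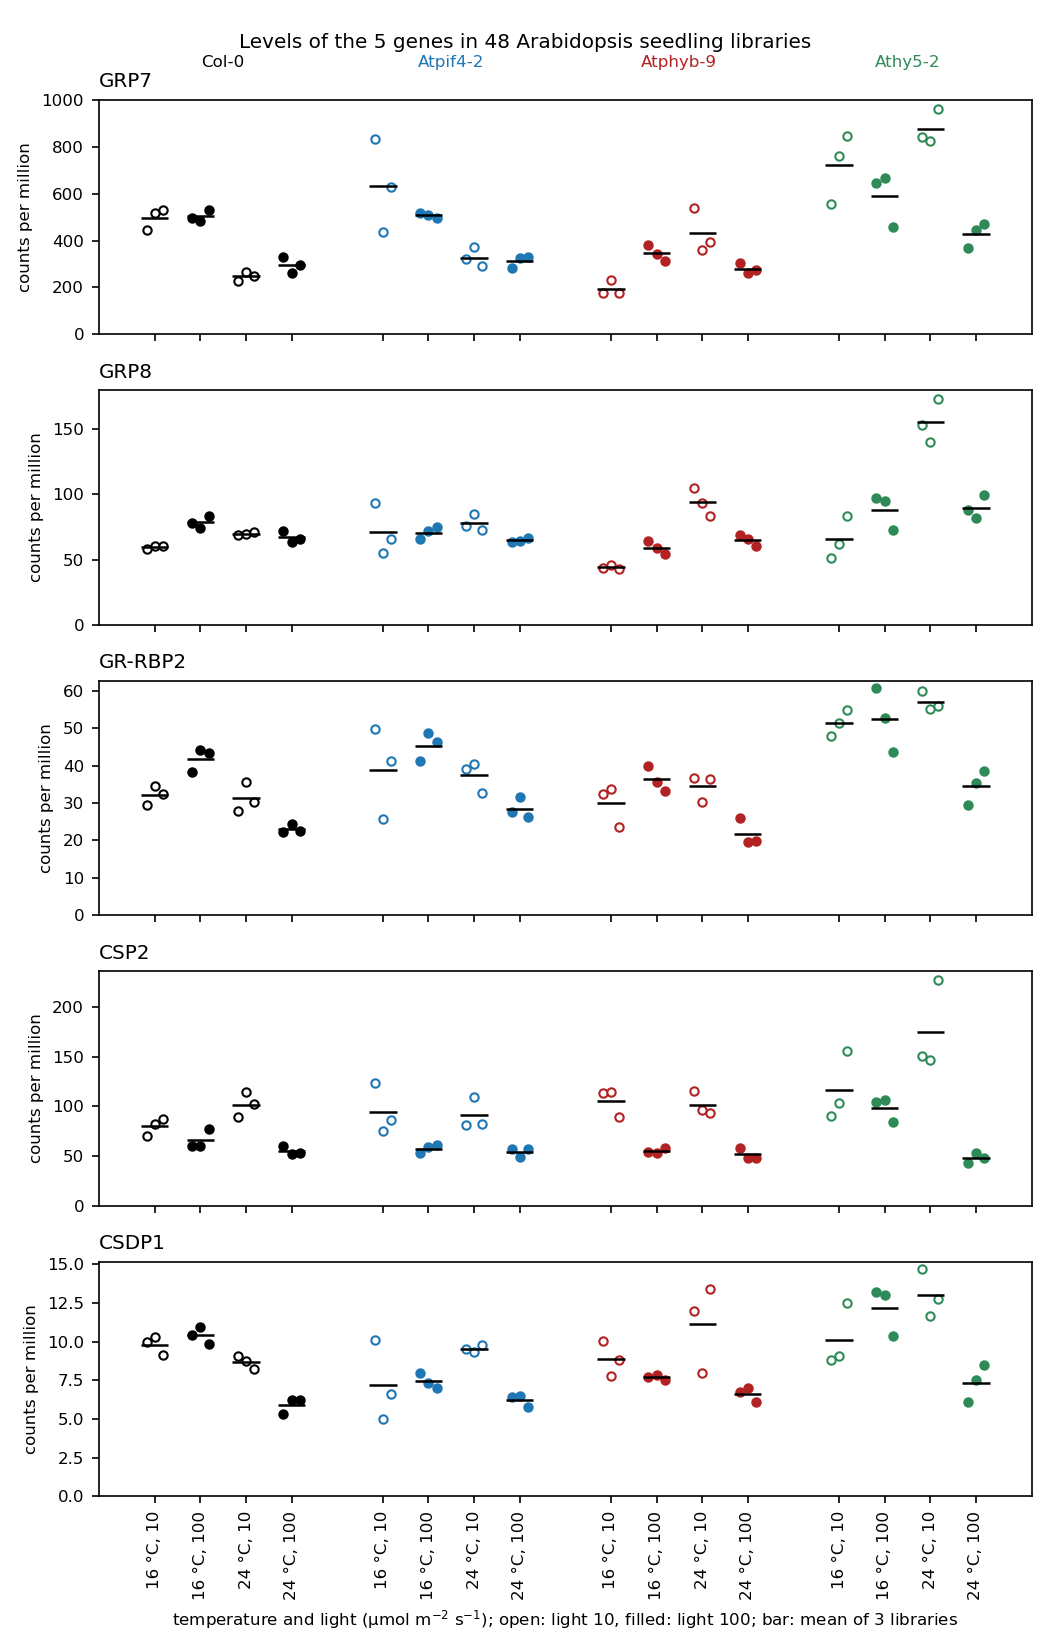
Level of each member in CPM (vertical axis) in each of the 48 libraries by line, temperature and light; each point is 1 library and each bar the mean of 3. GRP7 was lowest in Atphyb-9 at 16 °C and light 10 (175 to 230 CPM) and highest in Athy5-2 at 24 °C and light 10 (828 to 963 CPM).

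Library totals ran from 30806701 to 44043446 counts. The median share of counts in ribosomal RNA genes was 8.12% at light 10 and 0.874% at light 100, and 28.7% ± 5.06 (SD, n = 3) in Athy5-2 at 24 °C and light 10. TMM factors ran from 0.501 to 1.51, lower at light 10 (median 0.828) than at light 100 (median 1.19). Scaling by library totals instead moved the median of all genes by -0.73 to 1.23 on the log2 scale, by 0.54 for the average light effect at 24 °C, so directions below are relative to the bulk of the genes. Relative to the all-gene median of each scaling, all 97 member changes called below kept their direction with library totals. This follows from the method and is no support, since a change of scaling shifts all genes of a contrast nearly alike. Relative values under both scalings differed by a median of 0.0074 on the log2 scale. All 5 green-tissue and all 5 root markers were detected in every library. Summed green-tissue markers ran from 53302 to 220402 CPM at light 10 and from 34272 to 119240 at light 100, root markers from 118 to 565 and from 121 to 452, and seed reserve markers from 1.88 to 543 and from 0.710 to 85.1. The rRNA share, the green-tissue markers and the seed reserve markers (medians of 73.6 and 12.7 CPM) thus stood higher at light 10, while root markers had medians of 198 at light 10 and 215 at light 100. Their part in the light results was not tested. Fits with the rRNA share take its slope from the spread within groups and apply it between groups. In Athy5-2 at 24 °C the shares did not overlap (23.3% to 33.4% at light 10, 0.535% to 0.710% at light 100). Such a fit cannot separate rRNA share from light there. In every line and at each light level, all 3 libraries at 16 °C had more green-tissue marker CPM than all 3 at 24 °C. In Col-0 these were 111184 to 122428 against 77668 to 83289.8 at light 10, and 74015 to 81458 against 57210.4 to 61948 at light 100, and their part in the temperature results was not tested. In whole seedlings, fewer cells of a type and less RNA per cell cannot be told apart. The mutated genes were not uniformly low: PIF4 in Atpif4-2 was 18.3 to 29.6 CPM against 50.3 to 91.0 in Col-0 outside 16 °C and light 100, where it was 9.96 to 10.7 against 10.7 to 12.7. PHYB was 20.4 to 30.5 CPM in Atphyb-9 and 32.0 to 52.0 in Col-0, and HY5 was 1.66 to 6.29 in Athy5-2 and 5.06 to 7.60 in Col-0, overlapping at 16 °C and light 10.

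Warmth lowered GRP7 in the wild type at both light levels. Its copy GRP8 was called at neither in the main fit, of all 48 libraries without a covariate, but was called in some other fits. In Col-0 at light 10, GRP7 was 447, 516 and 529 CPM at 16 °C and 229, 267 and 247 at 24 °C. The groups did not overlap, and the fall was 2.01-fold (log2 change -1.01 ± 0.17 SE, edgeR adjusted p = 1.41e-05). GRP8 was 58.4, 60.7 and 60.4 CPM at 16 °C and 68.5, 69.6 and 71.4 at 24 °C under the same light, a log2 change of 0.22 ± 0.13 that was not called (adjusted p = 0.247). It was called higher with the rRNA share as a covariate (0.35, adjusted p = 0.0229), with library totals (0.36, adjusted p = 0.0336) and in a fit of the Col-0 libraries alone (0.22, adjusted p = 0.0302). At light 100 the GRP8 value of -0.23 was not called (adjusted p = 0.188), but the fit of Col-0 alone called it lower (-0.22, adjusted p = 0.0206). In the main fit GRP7 was the single member called at light 10 in Col-0, where 22.8% of all tested genes were called (11.4% in each direction). There CSP2 was called higher with the covariate (0.52, adjusted p = 0.00652) and with library totals (0.48, adjusted p = 0.00786). The fit of Col-0 alone also called CSP2 higher (0.35, adjusted p = 0.0375). At light 100, where 35.9% of genes were called (18.9% higher), GRP7, GR-RBP2 and CSDP1 fell. GRP7 was 497, 483 and 532 CPM at 16 °C and 330, 260 and 295 at 24 °C (log2 change -0.77 ± 0.17, adjusted p = 0.00025). GR-RBP2, the mitochondrial protein, went from 38.2, 44.1 and 43.3 CPM to 22.2, 24.4 and 22.4 (-0.86 ± 0.15, adjusted p = 1.96e-05). All 3 cool libraries stood above all 3 warm ones for both genes. CSDP1, the cold-shock domain protein with the lowest counts, went from 10.4, 10.9 and 9.86 CPM to 5.29, 6.25 and 6.23 (-0.81 ± 0.17, adjusted p = 0.000175), again without overlap.

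The fall of GRP7 in warmth was also seen in Atpif4-2 and turned into a rise in Atphyb-9 at light 10. In Atpif4-2 at light 10, GRP7 was 833, 438 and 628 CPM at 16 °C and 321, 371 and 291 at 24 °C (-0.95 ± 0.17, adjusted p = 2.74e-05), and in the main fit it was the single member called there against 27.7% of genes. With library totals GRP7 was -0.48 (adjusted p = 0.0057), and GRP8 (0.59), GR-RBP2 (0.42), CSP2 (0.41) and CSDP1 (0.88) were called higher. The rRNA share as a covariate gave calls of GRP8 (0.34) and CSDP1 (0.60) as higher. In Atphyb-9 the cool libraries were the low ones for GRP7, at 175, 230 and 177 CPM, and the warm ones were 539, 359 and 396 (1.15 ± 0.17, adjusted p = 1.36e-06). GRP8 rose beside it in Atphyb-9, from 43.7, 46.1 and 42.6 to 105, 93.8 and 83.2 CPM (1.09 ± 0.14, adjusted p = 7.19e-08), and these 2 genes were the members called in that line in the main fit (23.0% of genes). Library totals also called GR-RBP2 (0.54) and CSDP1 (0.65) higher there. The cool and warm Atphyb-9 libraries at light 10 also differed in summed green-tissue markers (155963 to 180459 against 53302 to 67436 CPM) and root markers (313 to 565 against 182 to 192 CPM), and their part in the result was not tested. In Athy5-2 GRP8 rose from 51.2, 62.0 and 83.8 to 153, 140 and 173 CPM (1.24 ± 0.14, adjusted p = 1.17e-09), while GRP7 had a log2 change of 0.28 ± 0.16 that was not called (adjusted p = 0.171). CSP2 was the second member called in Athy5-2 (41.1% of genes), with 0.58 ± 0.17 (adjusted p = 0.00617), but the value was 0.35 (adjusted p = 0.118) without replicate 3 at 24 °C and 0.43 (adjusted p = 0.0694) without replicate 1 at 16 °C, and 0.27 (adjusted p = 0.171) with the covariate. Both GRP8 rises passed in every fit that left out 1 library.

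At light 100, GR-RBP2 fell with warmth in all 4 lines, by 0.86 in Col-0, by 0.67 in Atpif4-2, by 0.74 in Atphyb-9 and by 0.60 in Athy5-2 on the log2 scale. The SE was 0.15 in each line, and each fall was called in every fit without 1 library. In Athy5-2 the value was -0.31 (adjusted p = 0.0874) with the rRNA share as a covariate and -0.060 (adjusted p = 0.774) with library totals, and neither was called. In Atpif4-2, 2 members fell (30.4% of genes called), the other being GRP7 with -0.70 ± 0.17. In Atphyb-9, GR-RBP2 alone was called in the main fit (22.0% of genes), while the covariate also called GRP7 lower (-0.50, adjusted p = 0.01). In Athy5-2, 4 members fell (42.6% of genes), GRP8 being the exception at 0.028 ± 0.13. With library totals GRP8 was called higher in Athy5-2 (0.57, adjusted p = 0.000163). CSP2 fell there from 104, 106 and 84.7 to 43.4, 52.7 and 48.2 CPM (-1.03 ± 0.17, adjusted p = 5.73e-06), without overlap. The fall of CSDP1 there (-0.73) was -0.19 and not called with library totals. The fall of GRP7 in Athy5-2 was small, -0.46 ± 0.16, reading -0.15 and not called with the covariate and 0.088 with library totals, and the call was lost in 3 of 6 fits without 1 library (replicates 1 and 2 at 16 °C and replicate 1 at 24 °C, -0.39 to -0.36). Averaged over the 4 lines, 4 of 5 members fell with warmth at light 100 (56.1% of genes called): GRP7 by 0.56, GR-RBP2 by 0.72, CSP2 by 0.37 and CSDP1 by 0.50 on the log2 scale. The CSP2 average rests on Athy5-2, since it was -0.14 and not called without that line.

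**Figure D2:**
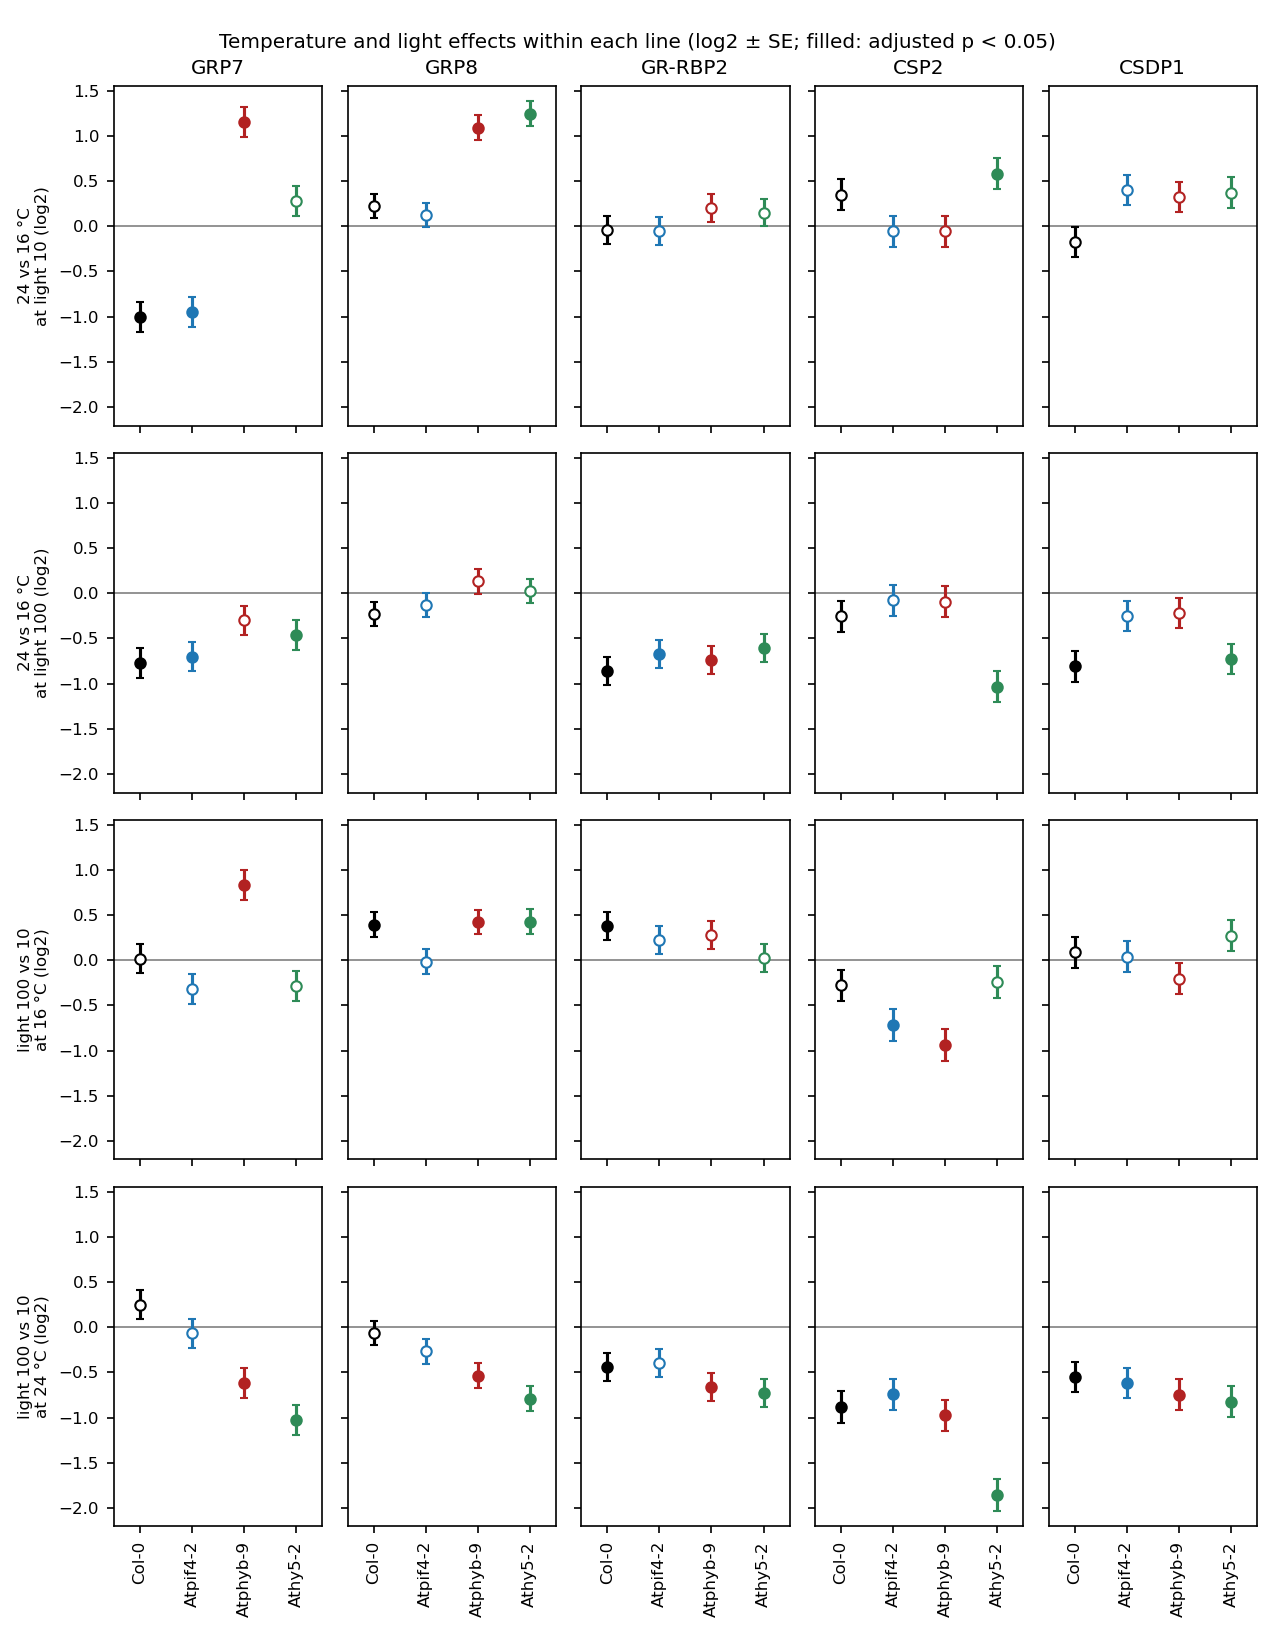
Log2 change ± SE of each member (vertical axis) for temperature at each light and light at each temperature, by line; filled points have an edgeR adjusted p under 0.05. At light 100 the GR-RBP2 points lie between -0.86 and -0.60, and at 24 °C the CSP2 light points lie between -1.86 and -0.74. The Athy5-2 points for GRP7, GRP8, GR-RBP2 and CSDP1 at 24 °C turn positive (0.22 to 0.50) with library totals.

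More light lowered CSP2, mainly at 24 °C. In Col-0 at 24 °C, CSP2 was 89.2, 114 and 102 CPM at light 10 and 60.1, 52.5 and 53.1 at light 100 (-0.88 ± 0.17, adjusted p = 0.000124). The same contrast gave -0.74 ± 0.17 in Atpif4-2, -0.98 ± 0.17 in Atphyb-9 and -1.86 ± 0.18 in Athy5-2, where it went from 150, 147 and 227 to 43.4, 52.7 and 48.2 CPM. In each line all 3 libraries at light 10 stood above all 3 at light 100, and all 4 calls held without any 1 library. They also held, in all 4 lines, with the rRNA share as a covariate (-0.50 in Col-0, adjusted p = 0.026). At 16 °C CSP2 fell in Atpif4-2 (-0.72 ± 0.17) and Atphyb-9 (-0.94 ± 0.17) but with the covariate these were -0.31 (adjusted p = 0.141) and -0.38 (adjusted p = 0.13), and neither was called with library totals.

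At 24 °C other members fell with light in some lines. In Col-0, 3 members fell (28.6% of genes called), while GRP7 was 229, 267 and 247 CPM at light 10 and 330, 260 and 295 at light 100. The GRP7 groups overlapped and the log2 change of 0.25 ± 0.16 was not called (adjusted p = 0.278), but it was called higher with the rRNA share as a covariate (0.60, adjusted p = 0.00667), with library totals (0.54, adjusted p = 0.00341) and in a fit of the Col-0 libraries alone (0.25, adjusted p = 0.049). Beside CSP2 the falls were of GR-RBP2 (27.8, 35.6 and 30.3 against 22.2, 24.4 and 22.4 CPM, -0.44 ± 0.15) and CSDP1 (9.07, 8.71 and 8.24 against 5.29, 6.25 and 6.23 CPM, -0.55 ± 0.17). Neither pair of groups overlapped, but with the covariate they were -0.11 (adjusted p = 0.71) and -0.29 (adjusted p = 0.319), and with library totals neither was called. The GR-RBP2 call was lost in 3 of 6 fits without 1 library (replicate 2 at light 10, replicates 1 and 3 at light 100, -0.42 to -0.34), and the CSDP1 call without replicate 1 at light 100 (-0.48, adjusted p = 0.0642). In Atpif4-2, 2 members fell (20.9% of genes), CSP2 and CSDP1 (-0.62 ± 0.17, but -0.44 with an adjusted p of 0.0757 with library totals). In Atphyb-9 (37.6%) and Athy5-2 (58.7%) all 5 fell, by 0.54 to 0.98 and by 0.73 to 1.86 on the log2 scale, though in Athy5-2 the log2 values with library totals were 0.22 for GRP7, 0.46 for GRP8, 0.50 for GR-RBP2 and 0.40 for CSDP1. GRP7 in Athy5-2 was 843, 828 and 963 CPM at light 10 and 370, 446 and 473 at light 100, without overlap. In Atphyb-9 the GRP7 fall was -0.62 ± 0.17, and -0.43 (adjusted p = 0.0567) without replicate 1 at 24 °C and light 10. In the fit that held rRNA share as a covariate, calls for GRP7, GRP8, GR-RBP2 and CSDP1 were lost in both lines, at -0.45 to -0.20 in Atphyb-9 and -0.27 to -0.0055 in Athy5-2. The same 4 calls in Atphyb-9 were lost with library totals, at -0.26 to -0.064.

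In the main fit, light at 16 °C raised some members and not others. In Col-0, 2 of 5 rose (37.0% of genes called, 17.4% higher): GRP8 from 58.4, 60.7 and 60.4 to 78.0, 74.3 and 83.5 CPM (0.39 ± 0.13, adjusted p = 0.0188), and GR-RBP2 from 29.4, 34.6 and 32.3 to 38.2, 44.1 and 43.3 CPM (0.38 ± 0.15, adjusted p = 0.0458). Neither overlapped between groups. In Col-0, GRP7 was also called higher with the rRNA share as a covariate (0.48, adjusted p = 0.0429) and with library totals (0.46, adjusted p = 0.00747). CSDP1 was called higher with library totals (0.53, adjusted p = 0.0112). The GRP8 call was lost without replicate 1 at light 10 or replicate 3 at light 100 (0.38 and 0.35), and the GR-RBP2 call without any 1 of 4 libraries (replicates 1 and 3 at light 10, 2 and 3 at light 100, 0.32 to 0.39). In Atphyb-9 GRP7 rose from 175, 230 and 177 to 381, 344 and 313 CPM (0.83 ± 0.17, adjusted p = 6.42e-05), GRP8 rose by 0.42 ± 0.14 and CSP2 fell, so 3 of 5 were called (45.0% of genes). The Atphyb-9 GRP8 call was 0.36 (adjusted p = 0.0512) without replicate 1 at light 100. CSP2 was the single call in Atpif4-2 (48.6% of genes) and GRP8 in Athy5-2 (43.5%). The Athy5-2 value of 0.43 ± 0.14 was 0.28 without replicate 1 at light 10 and 0.35 without replicate 1 at light 100, and neither was called. With library totals GR-RBP2 and CSDP1 were also called higher in Atpif4-2 (0.81 and 0.62), Atphyb-9 (0.93 and 0.44) and Athy5-2 (0.48 and 0.74). GRP8 was called higher with library totals in Atpif4-2 (0.57). The covariate called GR-RBP2 higher in Atpif4-2 (0.58) and Atphyb-9 (0.76), and CSDP1 in Athy5-2 (0.40).

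Averaged over the lines, warmth at light 10 raised GRP8 by 0.67 ± 0.07 on the log2 scale (adjusted p = 6.35e-11). CSP2 (0.21 ± 0.09) and CSDP1 (0.23 ± 0.09) made it 3 of 5 members (46.3% of genes called), but the adjusted p was 0.0477 for CSP2 and 0.0245 for CSDP1. The CSP2 call was lost in 12 fits without 1 library (0.15 to 0.27 over all 24), and the CSDP1 call in 3: without Atpif4-2 replicate 2 at 16 °C, Atphyb-9 replicate 3 or Athy5-2 replicate 1 at 24 °C (0.18 to 0.21). GRP7 had an average of -0.13 ± 0.08, in which the fall in 2 lines and the rise in Atphyb-9 are both counted. Without Athy5-2 the GRP7 average was called, at -0.27 (adjusted p = 0.0234), and those of CSP2 (0.079, adjusted p = 0.567) and CSDP1 (0.18, adjusted p = 0.138) were not. Averaged over the lines, light at 16 °C raised GRP8 by 0.31 ± 0.07 and GR-RBP2 by 0.23 ± 0.08 and lowered CSP2 (-0.54 ± 0.09), 3 of 5 members against 67.0% of genes. The CSP2 value was -0.12 (adjusted p = 0.417) with the rRNA share as a covariate and -0.0055 (adjusted p = 0.96) with library totals, and was called in neither. GRP7 and CSDP1, not called in the main fit, were called higher with the covariate (0.44 and 0.33) and with library totals (0.59 and 0.58). At 24 °C all 5 fell (63.5% of genes, 29.8% lower), with GRP7 at -0.37, GRP8 at -0.41, GR-RBP2 at -0.56, CSP2 at -1.11 and CSDP1 at -0.68. With library totals GRP7 and GRP8 instead read 0.18 and 0.13, both called higher, GR-RBP2 (-0.013) and CSDP1 (-0.14) were not called, and the median of all genes moved by 0.54. With the covariate, GRP7 (0.044), GRP8 (-0.068) and GR-RBP2 (-0.17) were not called. Without Athy5-2 the GRP7 value was -0.15 and not called (adjusted p = 0.205).

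**Figure D3:**
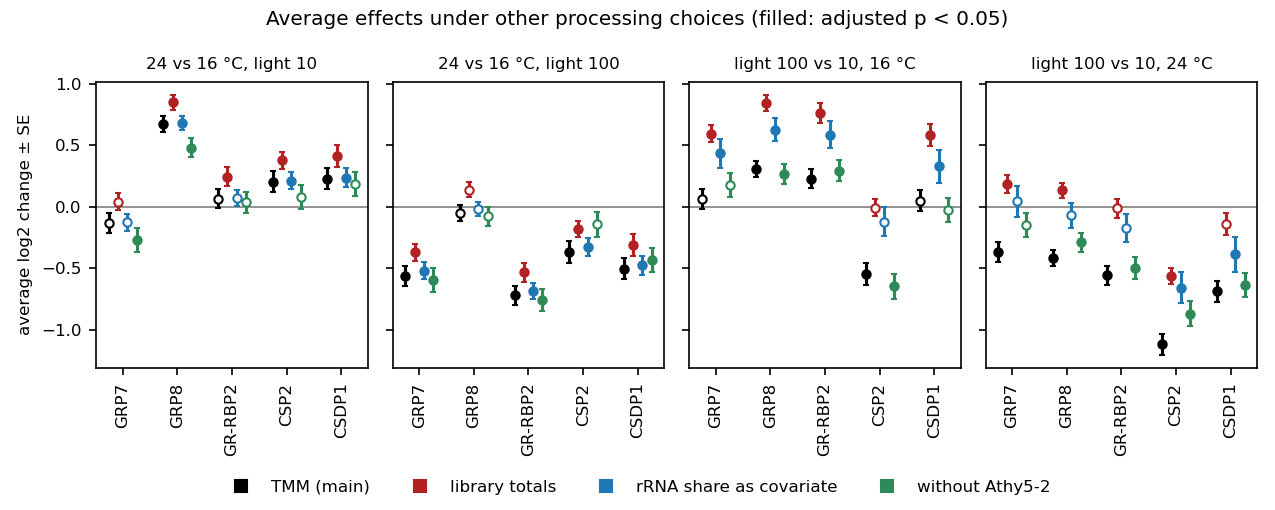
Average log2 change over the lines ± SE (vertical axis) of each member for 4 effects, with TMM scaling, with library totals, with the rRNA share as a covariate and without Athy5-2; filled points have an adjusted p under 0.05. For light at 24 °C CSP2 stays between -1.11 and -0.56, while GRP7 goes from -0.37 to 0.18 with library totals and 0.044 with the covariate, and GRP8 from -0.41 to 0.13 with library totals.

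The temperature effect depended on light for all 5 members when averaged over the lines, and in one direction. The interaction, the temperature effect at light 100 minus that at light 10, was -0.43 ± 0.12 for GRP7, -0.72 ± 0.10 for GRP8, -0.78 ± 0.11 for GR-RBP2, -0.57 ± 0.12 for CSP2 and -0.73 ± 0.12 for CSDP1. All 5 were called against 32.7% of genes (15.3% lower), and with library totals they ran from -0.77 to -0.41. Without Athy5-2 the averages of GRP7 (-0.32, adjusted p = 0.0712) and CSP2 (-0.22) were not called. In the main fit GR-RBP2 was the only member called within all 4 lines: -0.82 ± 0.22 in Col-0 (7.17% of genes called, 1 member), -0.62 ± 0.22 in Atpif4-2 (20.7%, 2 members), -0.94 ± 0.22 in Atphyb-9 (6.74%, 3 members) and -0.75 ± 0.22 in Athy5-2 (32.5%, 5 members). GRP8 was called lower in Col-0 and Atpif4-2 with the rRNA share as a covariate (-0.55 and -0.46) and with library totals (-0.61 and -0.65). In both of these fits GRP8 was thus called in all 4 lines. In Col-0, CSP2 (-0.73) and CSDP1 (-0.72) were called lower with the covariate, and CSP2 (-0.76) with library totals. A fit of Col-0 alone called GRP8 (-0.44), CSP2 (-0.59) and CSDP1 (-0.62) lower. In Athy5-2 the GR-RBP2 value was -0.18 with the covariate and 0.024 with library totals, and the calls of GRP7 and CSDP1 were also lost in both of these fits. The Col-0 value was -0.72 (adjusted p = 0.053) without replicate 2 at 24 °C and light 10, and the Atpif4-2 value -0.39 (adjusted p = 0.165) without replicate 2 at 16 °C and light 10. The Atpif4-2 call was lost in 7 of 12 fits without 1 library and in a fit of that line alone (-0.63, adjusted p = 0.0939). In Atphyb-9 GRP7 and GRP8 had interactions of -1.45 ± 0.23 and -0.96 ± 0.19, and in Athy5-2 CSP2 had the largest of the 5, -1.62 ± 0.24.

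GRP7 and GRP8 reads were also set against each other within each library, which does not depend on scaling. Col-0 had 8.31 ± 0.578 (SD, n = 3) GRP7 counts for each GRP8 count at 16 °C and light 10, and 3.55 ± 0.259 at 24 °C. At light 100 the ratio was 6.41 ± 0.0756 in the cool and 4.39 ± 0.265 in the warm. Neither pair of Col-0 groups overlapped. In Atpif4-2 the 4 means in the same order were 8.79, 4.19, 7.20 and 4.82, and in Athy5-2 11.1, 5.66, 6.67 and 4.79. Atphyb-9 stood apart at light 10, with 4.39 ± 0.530 in the cool and 4.57 ± 0.668 in the warm, and these groups overlapped; at light 100 it had 5.84 and 4.34.

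Over the 4 lines, warmth lowered the log2 ratio by 0.80 at light 10 (two-sided exact permutation test within lines, p = 0.00015, adjusted over 4 tests 0.0003). At light 100 the ratio fell by 0.51 (exact permutation p = 1.25e-05, the smallest that 160000 arrangements can give, adjusted 5e-05), and it fell in all 4 lines. Light at 16 °C gave -0.24 (exact permutation p = 0.0336, adjusted 0.0448), but in Atphyb-9 the ratio was 1.34-fold higher at light 100. The call was lost in 17 of 24 fits without 1 library, and without each of 3 lines. Light at 24 °C gave 0.048 (exact permutation p = 0.484). A single line, 3 libraries against 3, cannot give a p below 0.1.

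**Figure D4:**
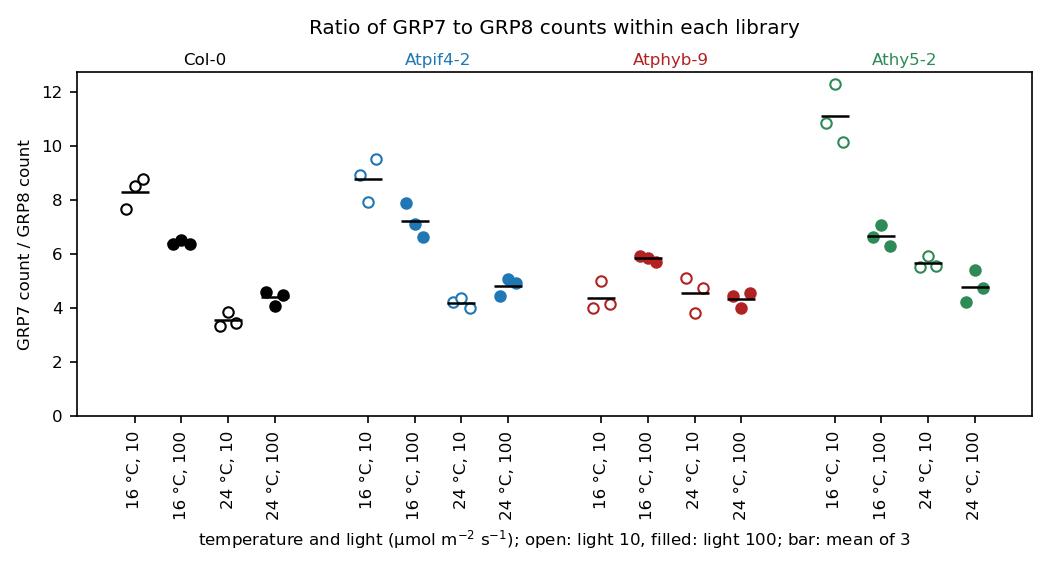
GRP7 counts divided by GRP8 counts (vertical axis) in each library by line, temperature and light; each point is 1 library and each bar the mean of 3. The ratio was 8.31 at 16 °C and 3.55 at 24 °C in Col-0 at light 10, and 4.39 and 4.57 in Atphyb-9.

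Mutant lines were compared with Col-0 within each condition, and these comparisons share the Col-0 libraries. In Atpif4-2 none of the 5 members was called in any of the 4 conditions by edgeR, where 20.7% (16 °C, light 10), 4.77% (16 °C, light 100), 4.26% (24 °C, light 10) and 0.447% (24 °C, light 100) of genes were. The nearest to the threshold was CSDP1 at 16 °C and light 10 (-0.44 ± 0.17, adjusted p = 0.0607). Of the 20 values 4 had an unadjusted p under 0.05, DESeq2 called 1 (CSDP1 at 16 °C and light 10), and the fit with the rRNA share as a covariate called 6, with GRP7 higher at light 10 (0.42 at 16 °C, 0.58 at 24 °C). Without Atpif4-2 replicate 2 at 16 °C and light 10, the library with the lowest CSDP1, GRP7 (0.55), GRP8 (0.41) and GR-RBP2 (0.50) were called higher in that condition, and without replicate 1 CSDP1 was called lower (-0.76).

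In Atphyb-9, GRP7 was lower than in Col-0 in the cool and higher in warm dim light. At 16 °C and light 10 it was 175, 230 and 177 CPM against 447, 516 and 529, a 2.56-fold difference without overlap (-1.36 ± 0.17, adjusted p = 4.47e-08). At 24 °C and light 10 it was 539, 359 and 396 CPM against 229, 267 and 247, higher in every library (0.80 ± 0.17, adjusted p = 0.000611). GRP8 followed with -0.44 ± 0.14 and 0.43 ± 0.13, so these 2 members were called in each condition (29.2% and 17.6% of genes). At 16 °C and light 100 both were lower, GRP7 by -0.54 ± 0.17 and GRP8 by -0.41 ± 0.13 (12.8% of genes), and at 24 °C and light 100 no member was called by edgeR or DESeq2, with 0 at an unadjusted p under 0.05 (10.9% of genes). GRP7 at 16 °C and light 100 lost its call in 4 of 6 fits without 1 library (-0.55 to -0.48), GRP8 in 5 of 6 (-0.45 to -0.35), and GRP8 at 24 °C and light 10 in 4 of 6 (0.34 to 0.44). This last value was 0.20 with the covariate and 0.28 with library totals, and neither was called. The average temperature effect differed from that of Col-0 for GRP7 (1.31 ± 0.17, adjusted p = 8.29e-08), GRP8 (0.61 ± 0.13) and CSDP1 (0.55 ± 0.17, but 0.37 and not called with the covariate), 3 of 5 members against 22.5% of genes. The interaction differed for GRP7 alone (-1.69 ± 0.33, adjusted p = 0.0011; 2.82% of genes), and the average light effect for 0 members by edgeR and 0 by DESeq2, with 1 at an unadjusted p under 0.05 (7.92% of genes).

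In warm dim light (24 °C, light 10) all 5 members stood higher in Athy5-2 than in the wild type, where 46.5% of genes were called and 22.2% were higher. GRP7 was 843, 828 and 963 CPM against 229, 267 and 247 (3.54-fold, 1.82 ± 0.17, adjusted p = 3.06e-11). GRP8 was 153, 140 and 173 against 68.5, 69.6 and 71.4 (1.15 ± 0.14), and GR-RBP2 60.0, 55.1 and 56.0 against 27.8, 35.6 and 30.3 (0.87 ± 0.15). No mutant library overlapped Col-0 for these 3. CSP2 was 0.78 ± 0.17 and CSDP1 0.59 ± 0.17, but with the rRNA share as a covariate, which is 28.7% in that mutant group, they were 0.36 and 0.32 and not called, and CSDP1 read -0.14 with library totals. Library totals also ended the calls of GR-RBP2 (0.14, adjusted p = 0.443) and CSP2 (0.0056, adjusted p = 0.982), while GRP7 and GRP8 stayed called (1.08 and 0.41). At 16 °C and light 10 GRP7 (0.54 ± 0.17), GR-RBP2 (0.68 ± 0.15) and CSP2 (0.54 ± 0.17) were higher (28.3% of genes). At 16 °C and light 100 this held for CSP2 (0.58 ± 0.17; 22.2% of genes), and at 24 °C and light 100 for GRP7 (0.54 ± 0.17), GRP8 (0.43 ± 0.13) and GR-RBP2 (0.58 ± 0.15; 13.1% of genes). Of these 7 calls outside 24 °C and light 10, that of GR-RBP2 at 16 °C and light 10 alone held without any 1 library, but it was 0.32 (adjusted p = 0.121) with library totals, and CSP2 at 16 °C and light 10 was 0.28 (adjusted p = 0.269) without Athy5-2 replicate 3.

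Differences of effects were tested as well. Against Col-0, the average temperature effect of Athy5-2 differed for GRP7 (0.80 ± 0.16, adjusted p = 0.000215) and GRP8 (0.64 ± 0.13, adjusted p = 0.000281; 28.8% of genes). The average light effect differed for GRP7 (-0.79 ± 0.16, but -0.30 and not called with library totals) and CSP2 (-0.47 ± 0.17, adjusted p = 0.0393; 26.1% of genes), the latter 0.048 with library totals and not called in 10 of 24 fits without 1 library (-0.55 to -0.34). The interaction differed for GRP7 (-0.98 ± 0.33, adjusted p = 0.0481; 10.8% of genes), a call lost in 15 of 24 fits without 1 library (-1.13 to -0.82). It was -0.27 (adjusted p = 0.794) with the rRNA share as a covariate and -0.043 (adjusted p = 0.938) with library totals. DESeq2 also called the interaction lower for CSP2 (-1.04, adjusted p = 0.0284) and GRP8 (-0.79, adjusted p = 0.0388). RLE, a different scaling, called it for CSP2 (-1.04), while library totals called it higher for GR-RBP2 (0.998). The average light effect of GRP8 was called with RLE (-0.36), DESeq2 (-0.36) and the covariate (-0.29), and that of CSDP1 with library totals (0.44). In Atpif4-2 only the average temperature effect of CSDP1 differed (0.57 ± 0.17, adjusted p = 0.0218; 12% of genes), and without Atpif4-2 replicate 2 at 16 °C and light 10 it was 0.46 (adjusted p = 0.0523). For the light effect (0.793% of genes) and the interaction (1.06% of genes) edgeR and DESeq2 called 0 members in Atpif4-2, with 1 and 0 at an unadjusted p under 0.05.

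**Figure D5:**
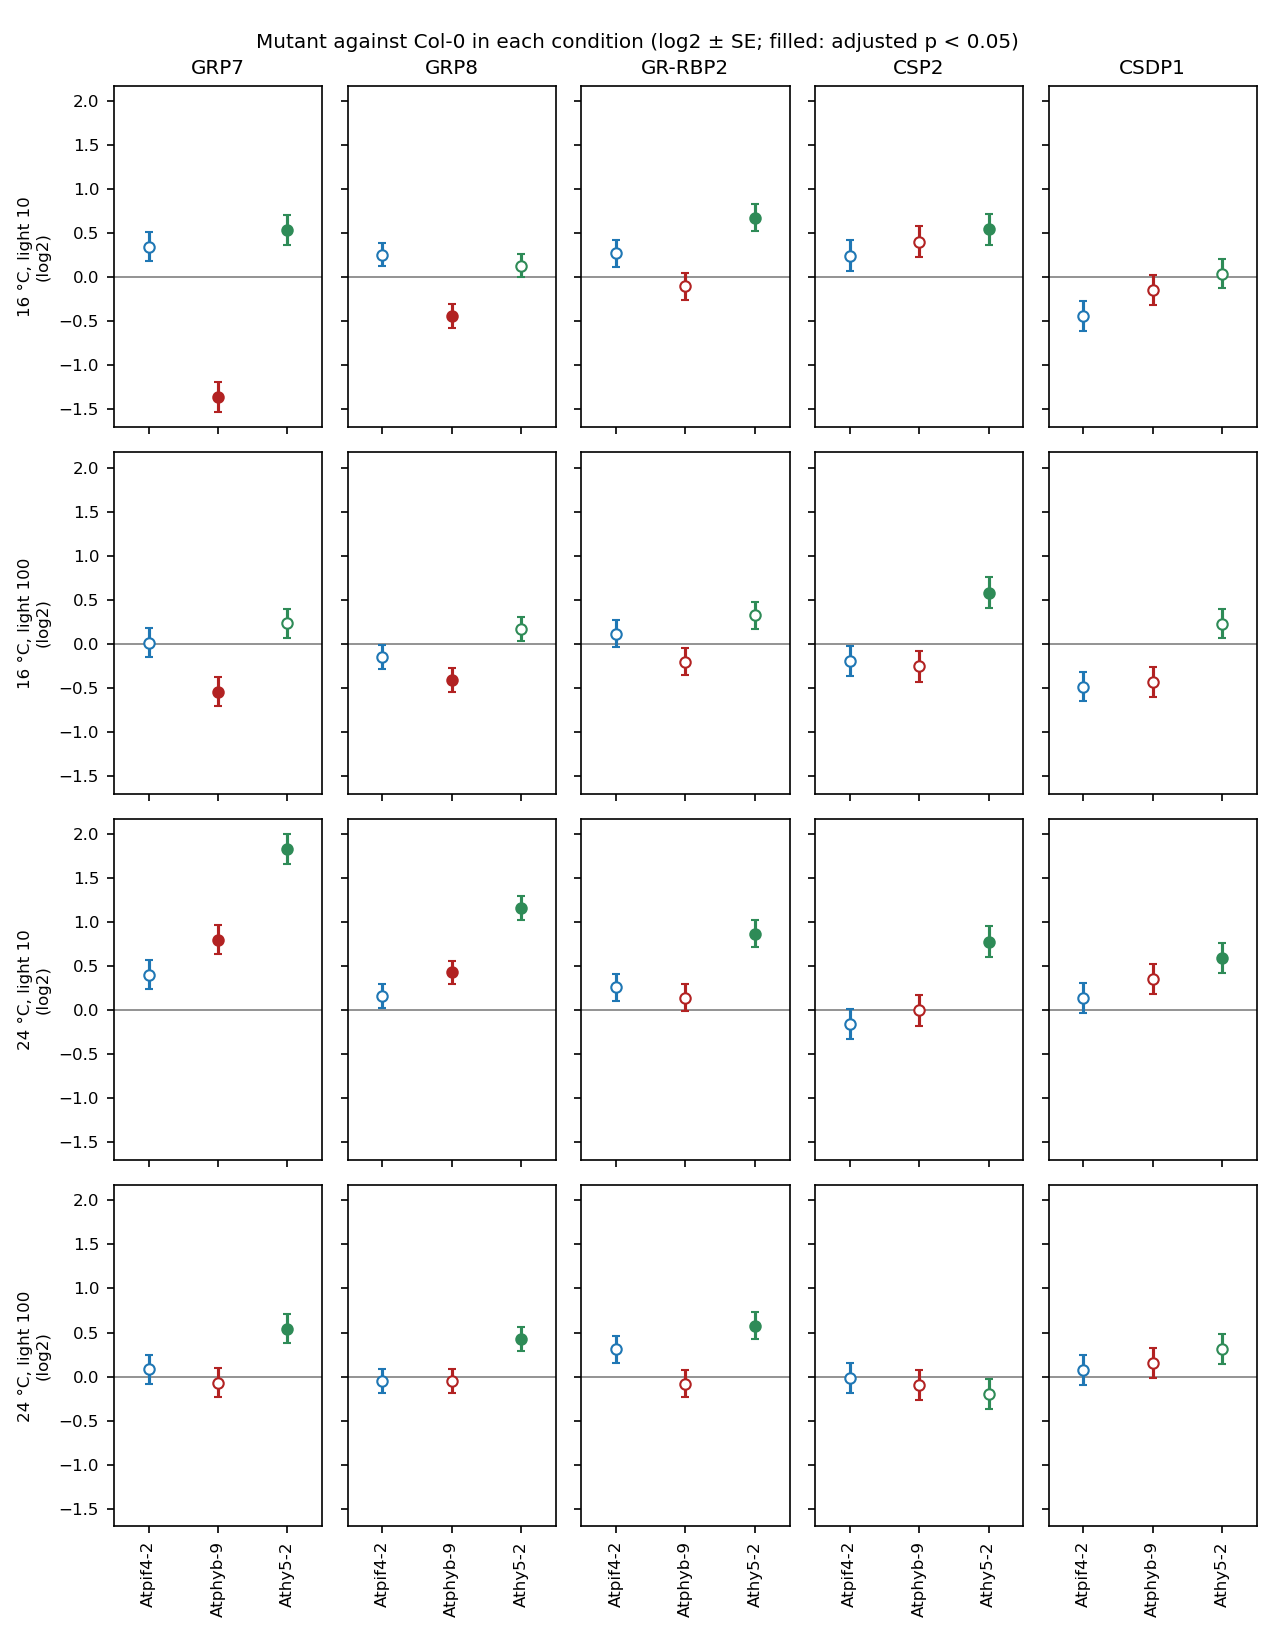
Log2 difference ± SE of each mutant line from Col-0 (vertical axis) for each member in each condition; filled points have an edgeR adjusted p under 0.05. GRP7 in Atphyb-9 goes from -1.36 at 16 °C to 0.80 at 24 °C under light 10, and in Athy5-2 all 5 points at 24 °C and light 10 lie between 0.59 and 1.82, of which CSDP1 reads -0.14 with library totals.

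Among 9 other tested glycine-rich and cold-shock genes, 0 rose and 4 fell with warmth at light 100 in Col-0. The largest falls were GRP4 (-1.22) and GR-RBP3 (-1.19), glycine-rich RNA-binding proteins of the GR-RBP2 kind. GRP2B, the close paralog of CSP2, fell with light at 16 °C (-0.73) and at 24 °C (-0.79), and CSP3, another cold-shock domain gene, by 0.52 and 0.51 on the log2 scale. Of the 9 genes, 2 rose and 2 fell with light at 16 °C, and 0 rose and 3 fell at 24 °C. Of 8 DEAD-box RNA helicases, which unwind RNA, 0 rose and 5 fell with warmth at light 100, led by PMH1 (-1.31) and STRS2 (-0.57). Of 8 plastid ribonucleoproteins, 0 rose and 3 fell, with AT2G37220 at -0.73 and PSRP2 at -0.48. The 10 clock genes went the other way at light 100 with 7 higher and 0 lower, led by PRR7 (1.84) and PRR9 (1.51), which repress the morning clock genes. At light 10, 0 clock genes rose and 2 fell with warmth, PRR5 by 0.89 and GI by 0.28 on the log2 scale. Of the same list, 1 rose and 4 fell with light at 16 °C, and 5 rose and 0 fell at 24 °C. These lists are small, and their counts stand beside the shares of all genes called given above.

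The genes whose profile over the 16 group means of log2 CPM was most like a member's were described by Pearson's r, with no test, since the groups share libraries with the members and the choice took the highest of many. For CSP2 these were HOG1, an enzyme of the methyl cycle (r = 0.97), AT2G33410 (0.96) and EIF4A1, a translation initiation helicase (0.96). For GRP7 they were AT2G21130 (0.91), AT4G26670 (0.91) and AT4G00165 (0.88), for GR-RBP2 the vacuolar proton pump AVP1 (0.91), LIN2 (0.90) and AT4G39880 (0.89), and for CSDP1 AT4G15770 (0.92), AT3G07910 (0.90) and AT3G03920 (0.89). For GRP8 they were Plsp2A (0.91), AT2G41835 (0.88) and the thioredoxin TRX2 (0.87), but over the 48 libraries DHAR2 (0.82), ATX1 (0.81) and EDA9 (0.79). Between members, r over the 16 groups ran from 0.40 (GRP8 and CSP2) to 0.80 (GRP7 and GR-RBP2), and GRP7 and GRP8 had 0.65.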

How the data were processed

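The NucleoSpin RNA Plant kit served to extract seedling RNA, and DNBseq gave paired reads of 100 bases, per the labels' protocols. The submitters' processing notes name FastQC 0.11.5 and the aligner HISAT2 2.1.0. How reads were counted, on which build and annotation and with what strand setting, is not given in the sources used here. Whole-number read counts per gene were deposited by the authors, with no normalization found in the values. Tables of the 3 other species were not used here.

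From these counts, edgeR 4.0.16 (limma 3.58.1, R 4.3.3) was fitted with 1 mean for each of the 16 groups. Genes were kept by filterByExpr with a minimum count of 10, leaving 22828 of 32833. Libraries were scaled by TMM, and robust quasi-likelihood F tests with 32 residual degrees of freedom were Benjamini-Hochberg adjusted over all 22828. Calls needed an adjusted p under 0.05. SEs come from the F statistic, and SDs are over 3 libraries. The 5 members were tested in 46 contrasts, 230 tests in all, of which 97 were called. GRP7 to GRP8 ratios were tested by exact permutation within lines. Steps were tested on simulated data. Ribosomal RNA genes, which the fit kept, were also removed or their share used as a covariate. Other alternatives were RLE scaling, no filter, DESeq2 1.42.0, a replicate block, each line alone and leaving out each library. Library totals and averages without Athy5-2 were added after seeing the data. Python 3.11.15 with numpy 2.4.6, pandas 2.3.3 and matplotlib 3.10.9 did the rest.

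The members and the gene lists were chosen with earlier results of these data known. Every member is named. From each list the text names at most 2 called genes in each direction per Col-0 comparison, with close paralogs of members, and for each member the 3 genes with the highest r among those with a mean of at least 5 CPM. Gene names and sequences come from RefSeq (TAIR10.1), in which 32548 of the 32833 identifiers were found. All 5 members matched.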

Additional observations from a re-analysis of the deposited data

Results flagged for a closer look

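Each value here is a log2 difference between 2 effects that passed its own edgeR quasi-likelihood test. Within a line the temperature effect differed between the light levels. For GR-RBP2 the effect at light 100 minus that at light 10 was -0.82 in Col-0, -0.62 in Atpif4-2, -0.94 in Atphyb-9 and -0.75 in Athy5-2. The Atpif4-2 call of GR-RBP2 was lost in 7 of 12 fits without 1 library. For CSDP1 it was -0.66 in Atpif4-2 and -1.10 in Athy5-2. The Atpif4-2 call of CSDP1 was lost in 11 of 12 fits without 1 library, with no filter on low counts (adjusted p = 0.0561) and in a fit of that line alone (adjusted p = 0.0766). For GRP7 it was -1.45 in Atphyb-9 and -0.74 in Athy5-2, and for GRP8 -0.96 in Atphyb-9 and -1.22 in Athy5-2. For CSP2 it was -1.62 in Athy5-2. In Athy5-2 the calls of GRP7, GR-RBP2 and CSDP1 were lost with the rRNA share as a covariate and with library totals.

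Between a mutant and Col-0, the average temperature effect differed by 1.31 for GRP7, 0.61 for GRP8 and 0.55 for CSDP1 in Atphyb-9, by 0.80 for GRP7 and 0.64 for GRP8 in Athy5-2, and by 0.57 for CSDP1 in Atpif4-2. The average light effect differed in Athy5-2 by -0.79 for GRP7 and -0.47 for CSP2. The interaction differed for GRP7 by -1.69 in Atphyb-9 and -0.98 in Athy5-2, the latter -0.27 (adjusted p = 0.794) with the covariate and -0.043 (adjusted p = 0.938) with library totals. The mutant differences share the Col-0 libraries.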

How the results depend on the processing

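Of the 97 called changes of members, 92 were called in each of 5 other fits (RLE scaling, no filter, rRNA genes removed, DESeq2 and the replicate block), and 70 in every fit that left out 1 library, with no change of sign among the 97. The counts of calls within each kind of comparison stayed within 1.5 times under the alternatives for which they were taken. They were not taken for fits of 1 line alone or for averages without Athy5-2. The replicate numbers do not pair the libraries: 8 of 360 same-numbered pairs deviated together with a correlation over 0.1, and 13 of 48 libraries correlated best with their own number. The replicate block called 95 and lost CSP2 in the average temperature effect at light 10 (0.21, adjusted p = 0.0527) and GRP7 in the Athy5-2 minus Col-0 interaction (-0.97, adjusted p = 0.0577), and with it the GRP7 to GRP8 ratio for light at 16 °C was -0.24 (adjusted p = 0.0432). That ratio was not called without the line Col-0 (-0.20), Atpif4-2 (-0.23) or Athy5-2 (-0.080), and ran from -0.26 to -0.22 without 1 library, 17 of these 24 fits missing the threshold.

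Scaling and rRNA mattered most. With library totals 101 values were called, 67 of them among the 97. Besides 24 calls lost and 29 gained with no change of sign, 16 values changed sign with a call in at least 1 of the 2 fits. Of these 16, 5 were not called with TMM: GR-RBP2, CSP2 and GRP8 in Atpif4-2, CSDP1 in Atphyb-9, and CSDP1 in Athy5-2 minus Col-0 for the average light effect. The 16 values were 0.42 for GR-RBP2 and 0.41 for CSP2 (Atpif4-2, temperature at light 10), 0.57 for GRP8 (Atpif4-2, light at 16 °C), 0.44 for CSDP1 (Atphyb-9, light at 16 °C) and 0.088 for GRP7 (Athy5-2, temperature at light 100). For Athy5-2 and light at 24 °C they were 0.22 for GRP7, 0.46 for GRP8, 0.50 for GR-RBP2 and 0.40 for CSDP1, and for its interaction 0.036 for GRP7 and 0.024 for GR-RBP2. They were 0.18 for GRP7 and 0.13 for GRP8 in the average light effect at 24 °C, -0.14 for CSDP1 in Athy5-2 minus Col-0 at 24 °C and light 10, and 0.048 for CSP2 and 0.44 for CSDP1 in the Athy5-2 minus Col-0 average light effect. With the rRNA share as a covariate, 27 calls were lost and 26 gained, and the average light effect of GRP7 at 24 °C reversed to 0.044. Fits of 1 line alone called 51 of 100 values against 49, with 5 lost and 7 gained. Without Athy5-2 the averages lost 6 of 20 calls and gained 1. The cause was not tested. CSDP1, with 169 to 585 counts per library, is the member that depth limits most.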

Other observations

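Clock genes and RNA helicases outside the 5 members also had light-dependent temperature effects in Col-0. For the interaction, 4 of 10 clock genes were called higher and 0 lower, with PRR7 at 2.06 and PRR5 at 1.55 on the log2 scale. Of 8 DEAD-box helicases 0 were higher and 2 lower, PMH1 (-0.93) and STRS2 (-0.65). With 7.17% of all genes called, these are descriptions of small lists.

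Averaged over the 4 lines, GRP2B fell with light by 1.04 at 16 °C and by 1.01 at 24 °C on the log2 scale, and CSP3 by 0.53 and by 0.65. GRP4 fell with warmth at light 100 by 1.09. All 5 averages were called by edgeR with TMM scaling, the only scaling given for these genes. Of the 9 tested genes of that list, 3 rose and 3 fell with light at 16 °C (67.0% of all genes called). At 24 °C 0 rose and 7 fell (63.5%), and with warmth at light 100 2 rose and 4 fell (56.1%).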
